A study of Rattus norvegicus with 19 samples.

Results

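The serine synthesis enzymes described here are Phgdh, Psat1, Psph, Shmt1 and Shmt2, taken by gene symbol from a table of expression values of rat genes. They are 5 of the 15597 genes in the table, with the numeric gene identifiers 58835, 293820, 304429, 287379 and 299857 in that order. All 5 were among the 11887 genes tested, which reached an FPKM of 1 in at least 4 libraries (FPKM counts fragments scaled by transcript length and by the total of the library). The genes were chosen by symbol with their FPKM in the 4 groups already in view, so their own group differences are given as descriptions, with standard errors and 95% intervals but without p-values.

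Cells make serine from 3-phosphoglycerate, an intermediate of glycolysis. Phgdh, phosphoglycerate dehydrogenase, commits it to the pathway, Psat1, phosphoserine aminotransferase, adds the amino group, and Psph, phosphoserine phosphatase, removes the phosphate. The serine hydroxymethyltransferases Shmt1 (cytosolic) and Shmt2 (mitochondrial) then turn serine into glycine and load a one-carbon unit on folate, which feeds purine and thymidylate synthesis. In the nervous system the dehydrogenase is known chiefly from radial glia and astrocytes, which supply serine to neurons, and serine is the precursor of glycine and D-serine, which act at synapses.

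RNA was sequenced from 19 primary cultures made from ventral spinal cords of wild-type Sprague-Dawley rat embryos at day E14. The groups were untreated cultures (control, n = 5), cultures given long-chain polyphosphate at 100 μM (polyP, n = 5), and cultures given astrocyte conditioned medium (ACM) from mouse astrocytes carrying human wild-type SOD1 (wtSOD1-ACM, n = 4) or human SOD1 G93A (mutSOD1-ACM, n = 5). Exposures lasted 90 min. Polyphosphate is a chain of phosphate units, and G93A is a SOD1 mutation of familial amyotrophic lateral sclerosis. Which promoter drives SOD1 in the mice is not given in the sources used here. Control cultures received no conditioned medium, and no group analysed here received medium from astrocytes without a SOD1 transgene. The rat cultures are labelled both as 7 and as 4 days old in vitro. The labels describe independent cultures but not whether these came from separate litters, so the spread between libraries may in part be technical.

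Genes at an FPKM of 1 or more numbered 11309 to 11723 per library, and the number of fragments sequenced per library is unknown, so no counting interval is given. Neuronal and glial markers were abundant, with Tubb3, a neuronal tubulin, at 361 to 773 FPKM and Vim, the filament protein of radial glia and other immature cells, at 1655 to 2158 FPKM. Motor neuron markers were near 0 in these ventral cultures, with Chat at 0.34 to 1.34, Isl1 at 0.05 to 0.45 and Mnx1 at 0 to 0.14 FPKM. Across the treatments the libraries clustered into set 1 (11 libraries) and set 2 (8 libraries), and set 1 divided further into cluster 1a (5 libraries) and cluster 1b (6 libraries). Cluster 1a holds control 1, polyP 1 and 2 and mutSOD1-ACM 1 and 2, and no wtSOD1-ACM library. Cluster 1b holds control 2 and 3, polyP 3, wtSOD1-ACM 1 and 2 and mutSOD1-ACM 3, and cluster 2, the same as set 2, holds the last 2 libraries of every group. Summed oligodendrocyte markers stood at 358 to 497 FPKM in cluster 1a, 577 to 694 in cluster 1b and 58.1 to 88.6 in cluster 2. In bulk RNA, fewer cells of a type and less RNA per cell cannot be told apart.

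The promoters of the enzymes are shown because the 3 enzymes of the synthesis steps were high together with polyP, and that of Shmt1 because it held the most motif matches of the 5. Each sequence is the 250 bases before the gene start that RefSeq lists on the build GRCr8, 5′ to 3′ on the gene's strand. The expression table was made on the build rn6, so these positions were not used with it. Capitals mark matches to CACGTG (the E-box bound by MYC) or GGGCGG (the GC box bound by SP1), searched with their reverse complements. TGATGNAA, the core of the element bound by C/EBP and ATF4 factors, was searched in the same way. The window of Phgdh lies at chr2:188624790-188625039 on the minus strand, Psat1 at chr1:222645409-222645658 (minus), Psph at chr12:32526841-32527090 (plus) and Shmt1 at chr10:45990342-45990591 (minus).
Phgdh: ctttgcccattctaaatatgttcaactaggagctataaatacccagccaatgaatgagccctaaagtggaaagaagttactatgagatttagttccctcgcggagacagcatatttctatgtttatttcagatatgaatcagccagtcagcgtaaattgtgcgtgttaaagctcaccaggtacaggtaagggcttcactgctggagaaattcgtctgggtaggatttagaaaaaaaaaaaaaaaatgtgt
Psat1: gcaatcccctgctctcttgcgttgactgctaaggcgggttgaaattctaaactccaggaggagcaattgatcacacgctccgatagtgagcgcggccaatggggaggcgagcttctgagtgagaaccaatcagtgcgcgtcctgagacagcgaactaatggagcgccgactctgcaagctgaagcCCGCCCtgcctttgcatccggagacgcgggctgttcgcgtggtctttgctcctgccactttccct
Psph: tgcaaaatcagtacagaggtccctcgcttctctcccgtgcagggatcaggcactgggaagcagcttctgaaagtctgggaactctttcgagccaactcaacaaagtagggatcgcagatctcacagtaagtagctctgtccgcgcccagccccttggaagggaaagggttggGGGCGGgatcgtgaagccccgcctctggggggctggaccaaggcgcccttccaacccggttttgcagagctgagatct
Shmt1: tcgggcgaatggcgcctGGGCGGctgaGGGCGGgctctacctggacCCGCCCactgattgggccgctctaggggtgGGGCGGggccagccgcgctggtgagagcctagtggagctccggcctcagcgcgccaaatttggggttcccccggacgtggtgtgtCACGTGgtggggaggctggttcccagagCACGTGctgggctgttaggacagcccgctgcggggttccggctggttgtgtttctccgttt
The Psat1 window holds 1 GC box, 65 to 60 bases before the start on the opposite strand, and the Psph window holds 1, 78 to 73 bases before the start. The Shmt1 window holds 4 GC boxes and, 89 to 84 and 61 to 56 bases before the start, 2 E-boxes. No motif was matched in the windows of Phgdh and of Shmt2 (chr7:65249568-65249817, minus, not shown). TGATGNAA was in none of the 5 windows. Among 33469 promoter windows of this length, 30.5% hold the GC box, 5.59% the E-box and 3.4% TGATGNAA. The GC content was 38.8% for Phgdh, 58% for Psat1, 58.4% for Psph, 68.8% for Shmt1 and 45.2% for Shmt2, against a median of 51.2% over all windows. A match is a description of these letters. Whether the listed starts are those used in these cultures is not known, for Phgdh and Shmt2 as for the others, so the motifs and GC content describe these windows only.

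In untreated cultures the enzymes spanned a wide range of levels. Phgdh stood at 107 ± 10.3 FPKM (SD, n = 5), Shmt2 at 69.2 ± 4.61, Psat1 at 68.0 ± 11.4, Psph at 12.9 ± 1.04 and Shmt1 at 5.51 ± 0.567 FPKM. FPKM is scaled by transcript length, so levels of different genes can be set side by side. Among the genes tested Phgdh lay at percentile 93.5 of the control level, Shmt2 at 89.1, Psat1 at 88.9, Psph at 44.8 and Shmt1 at 22.9. Phgdh was the highest and Shmt1 the lowest of the 5 in all 19 libraries, with Psph next to the lowest. Shmt2 and Psat1 changed places: Psat1 was above Shmt2 in 2 of 5 control, 5 of 5 polyP, 2 of 4 wtSOD1-ACM and 4 of 5 mutSOD1-ACM libraries. In the control group these neighbours did not differ beyond their spread.

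**Figure D1:**
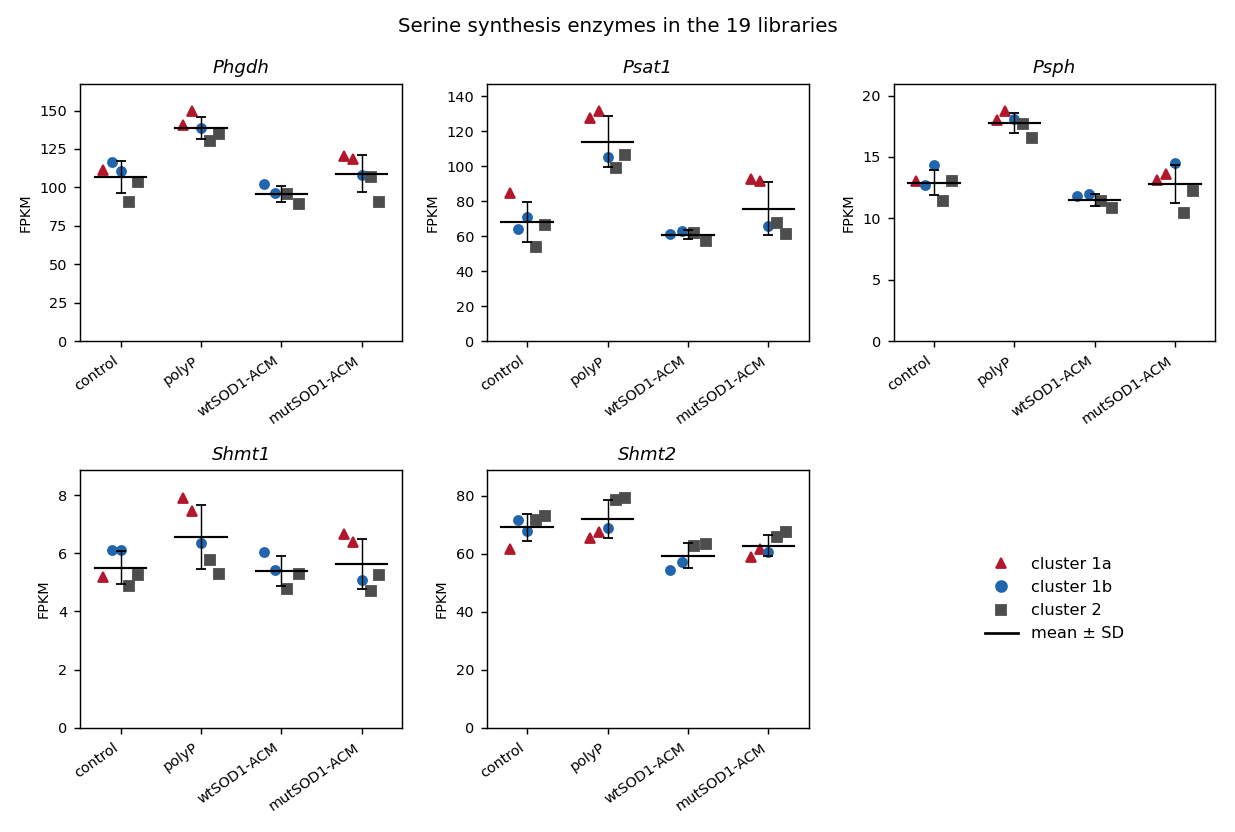
FPKM (vertical axis, from 0) of Phgdh, Psat1, Psph, Shmt1 and Shmt2 in each of the 19 libraries, by group, with the group mean and SD as a line and bars and the library cluster as the marker. The 5 polyP libraries lie above all control libraries for Phgdh, Psat1 and Psph, while Shmt1 and Shmt2 overlap between these groups.

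The first comparison asked what 90 min of polyP did to the enzymes relative to untreated cultures. Phgdh, Psat1 and Psph, the 3 steps from 3-phosphoglycerate to serine, were higher with polyP in every library, by 1.30-, 1.68- and 1.38-fold on mean FPKM. The serine-to-glycine enzymes Shmt1 and Shmt2 overlapped between the groups over all libraries. In the fit across all genes (limma on log2(FPKM + 1), called at a Benjamini-Hochberg adjusted p under 0.05) 3 of the 5 enzymes were called, all of them higher. Of all genes tested 31.8% were called in this comparison, 23% higher and 8.77% lower, and groups did not overlap for 3 of the 5 enzymes against 18.9% of all genes. The members were chosen with this contrast known, so nothing is read from these counts. The median log2 difference was 0.38 over the enzymes and 0.04 over all genes tested.

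Psat1 showed the largest difference of the enzymes. It stood at 85.0, 63.9, 70.9, 53.8 and 66.3 FPKM in control libraries 1 to 5 and at 128, 131, 105, 99.3 and 106 FPKM in polyP libraries 1 to 5. The lowest polyP library was thus above the highest control library, and in both groups the libraries of cluster 1a were the high ones. The group means were 68.0 ± 11.4 and 114 ± 14.5 FPKM (SD, n = 5 each), a log2 difference of 0.74 ± 0.127 (SE; 95% interval 0.48 to 1.01). Inside cluster 1a the control library was at 85.0 and the polyP libraries at 128 and 131 FPKM, in cluster 1b the controls at 63.9 and 70.9 and the polyP library at 105 FPKM, and in cluster 2 the controls at 53.8 and 66.3 and the polyP libraries at 99.3 and 106 FPKM. As the groups did not overlap, this separation inside each of the 3 clusters was fixed in advance and is no further check. With the cluster as a term the log2 difference was 0.67 ± 0.057 (SE).

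Phgdh stood at 112, 117, 111, 90.2 and 104 FPKM in control libraries 1 to 5 and at 140.5, 149.6, 139, 130.5 and 135 FPKM in polyP libraries 1 to 5. Every polyP library was above every control library, and library 4 was the lowest of each group. The means were 107 ± 10.3 and 139 ± 7.16 FPKM, a log2 difference of 0.38 ± 0.077 (SE; 95% interval 0.22 to 0.54).

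Psph stood at 13.0, 12.7, 14.4, 11.4 and 13.0 FPKM in the control libraries and at 18.0, 18.7, 18.1, 17.7 and 16.5 FPKM in the polyP libraries. The groups did not overlap, and the spread within each was small. The means were 12.9 ± 1.04 and 17.8 ± 0.81 FPKM, a log2 difference of 0.44 ± 0.073 (SE; 95% interval 0.28 to 0.59). In set 1 and set 2 the log2 difference was 0.34 and 0.45 for Phgdh, 0.72 and 0.77 for Psat1 and 0.43 and 0.45 for Psph. These libraries are also those the enzymes were chosen on, so the values describe them and support nothing further.

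The hydroxymethyltransferases showed smaller differences. Shmt1 stood at 5.20, 6.10, 6.11, 4.86 and 5.27 FPKM in control and at 7.90, 7.46, 6.35, 5.78 and 5.30 FPKM with polyP. The groups overlapped, with the lowest polyP libraries, 4 and 5, both in cluster 2. Within set 1 (3 against 3 libraries) and within set 2 (2 against 2) the polyP libraries of Shmt1 lay above control without overlap. In set 2 the gap was narrow, 5.30 against 5.27 FPKM. The log2 difference was 0.21 ± 0.105 (SE; 95% interval -0.01 to 0.43), not called. The fits with the library set or the cluster as a term called Shmt1 higher, at 0.18 ± 0.070 (SE) with the cluster term. Those fits called 3886 and 4121 of the 11887 genes tested higher, so nothing is read from these calls. Shmt2 stood at 61.9, 71.8, 67.8, 71.6 and 73.3 FPKM in control and at 65.7, 67.7, 69.0, 78.8 and 79.3 FPKM with polyP. These ranges overlapped over most of their width, and in both groups the cluster 2 libraries were among the highest. Within set 2 (2 against 2 libraries) the polyP libraries of Shmt2 lay above control without overlap, and within set 1 they overlapped. The share of all genes that separated within a set was not determined, so nothing is read from these separations of Shmt1 and Shmt2. The log2 difference of Shmt2 was 0.06 ± 0.067 (SE; 95% interval -0.09 to 0.20), an interval that lies below the point estimates of Phgdh, Psat1 and Psph. It turned to -0.06 when all libraries were scaled to equal summed FPKM.

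**Figure D2:**
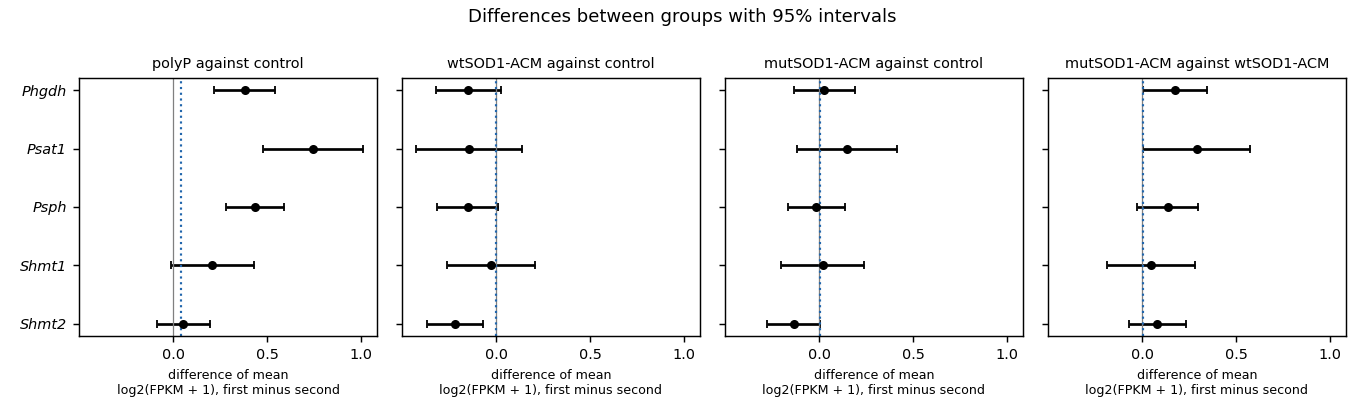
Difference of mean log2(FPKM + 1), first group minus second (horizontal axis), with 95% intervals, for the 5 enzymes in each of 4 comparisons; the dotted line is the median of all genes tested and the grey line is 0. The intervals of Phgdh, Psat1 and Psph lie above 0 for polyP against control, and that of Shmt2 lies below 0 for wtSOD1-ACM against control. For mutSOD1-ACM against wtSOD1-ACM those of Phgdh and Psat1 lie above 0, with lower ends of 0.003 and 0.007.

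The balance between the enzymes is given by ratios within a library. That of Psat1 to Phgdh FPKM was 0.637 ± 0.079 (SD, n = 5) in control and 0.819 ± 0.070 with polyP. The highest control library, at 0.761, lay above the lowest polyP library, at 0.756, so the ratios overlapped by these 2 libraries. Within each cluster the polyP ratios lay above the control ratios. The ratio of Psph to Phgdh was 0.121 ± 0.009 in control and 0.128 ± 0.005 with polyP. Mitochondrial Shmt2 exceeded cytosolic Shmt1 in every library, 12.7 ± 1.55-fold in control and 11.4 ± 2.87-fold with polyP. Within polyP this ratio ran from 8.31 to 15.0, and the cluster 2 libraries held the high values in all 4 groups.

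**Figure D3:**
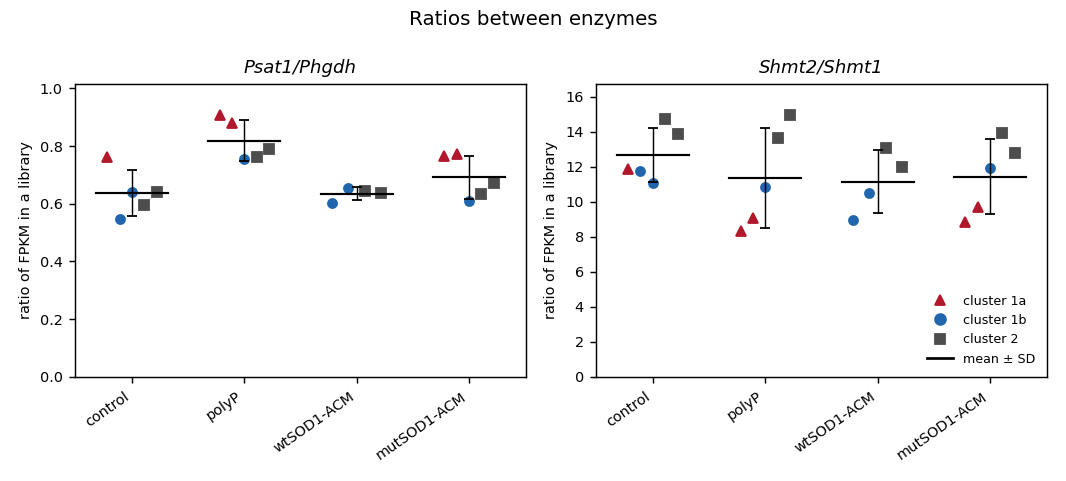
Ratio of FPKM within each library (vertical axis, from 0) for Psat1 over Phgdh and for Shmt2 over Shmt1, by group, with mean and SD and the library cluster as the marker. Psat1 over Phgdh is 0.756 to 0.908 in polyP and 0.547 to 0.761 in control, and Shmt2 over Shmt1 is highest in cluster 2 libraries.

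Markers of other cells and states moved with polyP. The summed FPKM of 6 radial glia and progenitor markers ran from 2787 to 3286 in control and from 3887 to 4302 with polyP, and 4 of the 6 were called higher. For this and the next counts, 23% of all genes tested were called higher and 8.77% lower. Vim and Fabp7 made up most of this sum, with Vim at means of 1748 and 1945 FPKM and Fabp7 at 983 and 1899 FPKM. Vim (0.15, limma adjusted p = 0.0472), Sox2 (0.66) and Pax6 (0.51) were called besides Fabp7, while the filament gene Nes (-0.21, limma adjusted p = 0.0626) and Hes5 (0.04, limma adjusted p = 0.865) were not. Fabp7, the fatty acid-binding protein of radial glia, rose by 0.96 on the log2 scale (limma adjusted p = 1.23e-04). The sum of 5 dividing-cell markers ran from 183 to 232 in control and from 260 to 316 with polyP. Of the 5, 3 were called higher: Pcna, the DNA polymerase clamp (0.63, limma adjusted p = 1.31e-04), Ccnb1 (0.36) and Mcm2 (0.35). Mki67 (0.03, limma adjusted p = 0.887) and Top2a (0.34, limma adjusted p = 0.0904) were not called. Pcna, at means of 112 and 174 FPKM, was the largest part of this sum. Sums of 8 astrocyte markers overlapped, at 321 to 550 and 350 to 470 FPKM with 1 of 8 called higher, and neuronal sums overlapped, at 850 to 1387 and 1167 to 1563 FPKM with 0 of 7 called. Of 6 oligodendrocyte and 6 microglia markers 0 were called. Of 4 fibroblast and meningeal markers 1 was called lower (sums of 489 to 806 FPKM in control and 313 to 622 with polyP). The 1 endothelial marker tested, Flt1, was lower (-0.56). The other endothelial markers, Pecam1 (0.08 to 0.86 FPKM), Cldn5 (0.09 to 0.67 FPKM) and Cdh5, were too low to be tested. Whether endothelial cells changed was therefore not tested. The part of these markers in the result of the enzymes was not tested.

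The 5 genes whose levels ran most like each enzyme were taken by their r over the 19 libraries. The libraries fall into clusters and share treatments, so Pearson's r of log2 values is given within set 1 (11 libraries) and set 2 (8 libraries) as a description. For Phgdh the 5 most similar genes were Echs1, a mitochondrial enoyl-CoA hydratase (0.92 and 0.99), Rrm2, a ribonucleotide reductase subunit (0.93 and 0.98), Cdca3 (0.94 and 0.97), Mcm2, of the replicative helicase (0.97 and 0.97), and Pnrc2 (0.93 and 0.98). For Psat1 they were Pea15 (0.98 and 0.98), the chromatin proteins Hmgn2 (0.97 and 0.99) and Hmgb2 (0.99 and 0.99), Cdca3 (0.97 and 0.99) and Adh5 (0.95 and 0.99). For Psph the 5 were Mocs2, Hddc2, Trim59, Smim15 and the PCNA-binding factor gene Pclaf, with r of 0.91 to 0.95 in set 1 and 0.92 to 0.96 in set 2. Those of Shmt1 were Asap1, Ddx52, Afg3l1, Tor1aip2 and Sesn3, with lower r of 0.59 to 0.84 in set 2. Those of Shmt2 were Iba57, Josd2, Cabin1, Spdl1 and Nkx6-1, at 0.78 to 0.94 in set 2. No gene was on more than 1 of these short lists except Cdca3. After group and set means were taken out, r ran from 0.67 to 0.83 for the 5 genes of Phgdh, 0.85 to 0.95 for Psat1, 0.19 (Trim59) to 0.69 for Psph, 0.60 to 0.75 for Shmt1 and 0.20 (Cabin1) to 0.76 for Shmt2.

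Among the enzymes themselves, r was 0.92 in set 1 and 0.98 in set 2 for Phgdh with Psat1, 0.90 and 0.86 for Phgdh with Psph, and 0.84 and 0.90 for Psat1 with Psph. Shmt1 with Shmt2 gave 0.37 and 0.62. Once group and set means were removed, Phgdh with Psat1 kept an r of 0.62, while Phgdh with Psph gave -0.04 and Psat1 with Psph 0.04. The library sets separated the hydroxymethyltransferases in opposite directions: Shmt1 averaged 6.25 ± 0.875 FPKM in set 1 (n = 11) and 5.16 ± 0.354 in set 2 (n = 8), and Shmt2 averaged 63.3 ± 5.46 and 70.3 ± 6.49 FPKM.

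Neighbouring genes of the pathway are given from 5 lists. Serine transport and use had 16 of its 19 genes tested, and with polyP 6 were called lower and 0 higher, with a list median of -0.23 on the log2 scale. Slc1a5, a neutral amino acid exchanger that carries serine and glutamine, fell from 8.98 ± 1.54 to 5.14 ± 0.547 FPKM (-0.69, limma adjusted p = 1.65e-04). Slc6a5, the glycine transporter of glycinergic neurons, fell by 0.56 and Slc38a2, a sodium-coupled neutral amino acid transporter, by 0.48 on the log2 scale (limma adjusted p = 0.00171 and 0.0023). Slc6a9, the glial glycine transporter, fell by 0.25 (limma adjusted p = 0.0188), which was lost without control 2 (adjusted p = 0.0564) or polyP 2 (adjusted p = 0.0504). The serine exchanger Slc1a4, named after its values were seen, stood at 71.7 ± 11.3 and 53.1 ± 9.14 FPKM (limma adjusted p = 0.0285), and its call was lost without control 1 or 2 or polyP 4 or 5, with adjusted p of 0.0592 to 0.0829. The sixth, Serinc1, a serine incorporator gene also named after its values were seen, fell by 0.16 (limma adjusted p = 0.0216) and was not called without polyP 4 (adjusted p = 0.0621) or polyP 5 (adjusted p = 0.0584). In set 1 alone Slc6a5, Slc38a2, Slc6a9 and Serinc1 were not called (limma adjusted p of 0.0722 to 0.156). The count lower over the whole list was 3 in set 1 alone, 4 without control 2, polyP 4 or polyP 5, 9 with equal sums, 13 with the set term and 12 with the cluster term, which also called 1 higher. In the fit with group alone 1043 of the 11887 genes tested (8.77%) were called lower. The number over all genes was 651 in set 1 alone and 1667 with equal sums. It was 2308 with the set term and 2510 with the cluster term.

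Glycine cleavage and folate one-carbon metabolism had 24 of 25 genes tested, of which 6 were called higher and 0 lower with polyP (median 0.09). The share called higher was close to the 23% of all genes. Gcsh, the carrier protein of the glycine cleavage system, rose from 41.0 ± 4.79 to 62.1 ± 5.41 FPKM (0.59, limma adjusted p = 1.63e-04). Tyms, thymidylate synthase, rose from 18.6 ± 1.61 to 27.1 ± 3.97 FPKM (0.52, limma adjusted p = 0.0023). Sfxn1, which carries serine into mitochondria, rose by 0.36 and Mthfs, a folate-cycle enzyme, by 0.38 (limma adjusted p = 6.04e-04 and 0.00207). With libraries scaled to equal sums, or by the median of ratios, the count became 4 higher and 2 lower. Over all 11887 genes equal sums gave 1404 higher and 1667 lower, and the median of ratios 1682 and 1595. Of the 6 tested genes of purine synthesis, which consumes glycine and one-carbon units, 4 were called higher and 1 lower (median 0.23). The shares over all genes tested were 23% and 8.77%. Paics rose by 0.48, Ppat by 0.33 and Gart by 0.28 (limma adjusted p = 1.70e-04, 0.0011 and 0.00185). Atic rose by 0.19, a call that each of 3 other scalings ended (limma adjusted p of 0.053 to 0.215). Pfas fell by 0.33 (limma adjusted p = 0.0326), which was lost without any 1 of control 2, 4 and 5 and polyP 1, 2 and 4 (adjusted p of 0.0549 to 0.0891).

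Glycolysis, which supplies 3-phosphoglycerate, had 10 of 16 genes called higher and 1 lower with polyP (median 0.22). The shares over all genes tested were 23% higher and 8.77% lower. Pgam1, which acts on 3-phosphoglycerate itself, rose from 144 ± 16.0 to 196 ± 11.4 FPKM (0.45, limma adjusted p = 2.64e-04). Aldoc, an aldolase, rose by 0.42 and Pkm, pyruvate kinase, by 0.25 (limma adjusted p = 3.46e-04 and 5.73e-04). In set 1 alone Pkm was not called (limma adjusted p = 0.0593). Gapdh rose by 0.41 (limma adjusted p = 5.80e-04), but with quantile normalization by 0.07 and was not called (adjusted p = 0.297). The gene called lower was Hk2, a hexokinase (-0.49, limma adjusted p = 0.00698). Under quantile normalization 6 were called higher and 2 lower. Equal sums or median-of-ratios scaling gave 7 higher and 2 lower, and set 1 alone gave 6 and 1. Over all 11887 genes, quantile normalization gave 2320 higher and 1105 lower, and equal sums 1404 and 1667. Median-of-ratios scaling gave 1682 and 1595, and set 1 alone 1819 and 651.

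ATF4 is the transcription factor that induces serine synthesis genes when amino acids run short, and its list held other known targets. With polyP 5 of 22 were called higher and 4 lower (median 0.08), with the share higher close to the 23% of all genes and 8.77% of all genes lower. Ddit4, an mTORC1 inhibitor, rose by 0.73 and Gpt2, an alanine aminotransferase, by 0.51 (limma adjusted p = 1.23e-04 and 0.0049). Slc3a2, the heavy chain of amino acid exchangers, fell from 189 ± 20.6 to 139 ± 9.99 FPKM (-0.44, limma adjusted p = 3.05e-04). Asns, asparagine synthetase, rose by 0.19 (limma adjusted p = 0.00322) and was not called with equal sums (adjusted p = 0.132). The other calls were Atf4 itself (0.21) and Cebpg (0.18) higher and Slc7a5 (-0.40), Vldlr (-0.41) and Aldh18a1 (-0.13) lower, and each of these 5 ended without some 1 library. With equal sums the count was 2 higher and 8 lower, against 1404 higher and 1667 lower over all 11887 genes. Leaving out 1 library gave 3 to 6 higher and 1 to 4 lower. The count was 1 lower without control 2, polyP 1 or polyP 4. It was 2 lower without control 1 or 4, polyP 2 or 5 or wtSOD1-ACM 1, 2 or 4, and 3 higher without polyP 2 or 4.

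**Figure D4:**
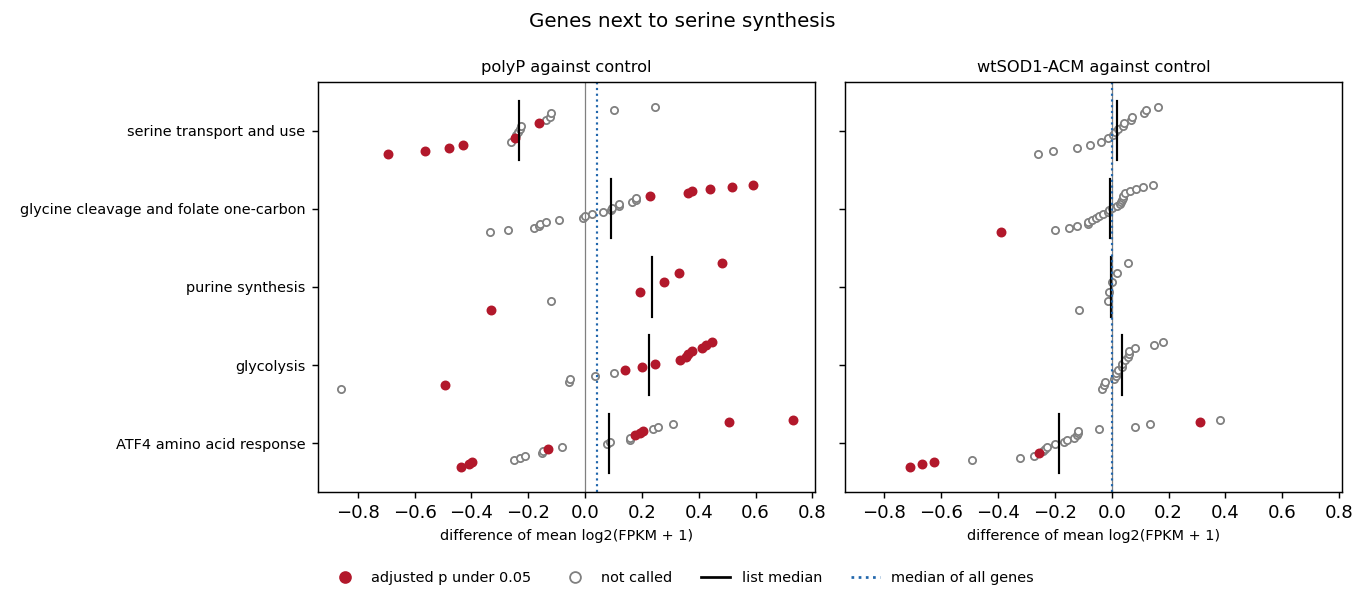
Difference of mean log2(FPKM + 1) from control (horizontal axis) for each tested gene of 5 lists, in polyP and wtSOD1-ACM; filled points passed an adjusted p under 0.05, black bars are list medians and the dotted line is the median of all genes. With polyP the transport list lies to the left (median -0.23) and glycolysis to the right (0.22), and with wtSOD1-ACM the called genes are 5 of the ATF4 list and 1 of the folate list.

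The second comparison was between wtSOD1-ACM and untreated cultures. None of the 5 enzymes was called, against 0.631% of all genes called (0.564% higher and 0.0673% lower). At an unadjusted p under 0.05 the limma fit had 1 of 5, Shmt2, and 3.72% of all genes. Groups overlapped for all 5 enzymes, while they did not for 1.62% of all genes. Shmt2 stood at 54.4, 57.1, 62.7 and 63.6 FPKM in wtSOD1-ACM libraries 1 to 4 and at 61.9, 71.8, 67.8, 71.6 and 73.3 FPKM in control. Control 1 was the single control library inside the range of the wtSOD1-ACM libraries. The means were 59.4 ± 4.41 (n = 4) and 69.2 ± 4.61 FPKM (n = 5), a log2 difference of -0.22 ± 0.071 (SE; 95% interval -0.37 to -0.07). Within set 1 and within set 2 the wtSOD1-ACM libraries lay below the control libraries without overlap. The share of all genes that separated within a set was not determined, so nothing is read from this separation. The fits with the library set or cluster as a term called Shmt2 lower, at -0.24 ± 0.041 (SE) with the cluster term. Those fits called 17 and 60 of the 11887 genes tested lower, against 8 with group alone. The cluster term was chosen after seeing the data.

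Phgdh stood at 102, 96.2, 95.9 and 89.4 FPKM in the wtSOD1-ACM libraries, a mean of 95.9 ± 5.16 (n = 4) and a log2 difference from control of -0.15 ± 0.082 (SE; 95% interval -0.32 to 0.02). Psat1 stood at 61.5, 63.0, 61.7 and 57.0 FPKM, with the smallest spread of any group, and a log2 difference of -0.14 ± 0.135 (SE). Psph stood at 11.8, 12.0, 11.4 and 10.8 FPKM, with a log2 difference of -0.15 ± 0.077 (SE). The lowest wtSOD1-ACM library was below every control library for Phgdh (89.4 against 90.2 FPKM), as were libraries 3 and 4 for Psph, and each of the 3 intervals included 0. Within set 1 (2 against 3 libraries) Phgdh, Psat1 and Psph lay below control without overlap, with log2 differences of -0.19, -0.22 and -0.16. Within set 2 only Psph did (-0.12, 2 against 2 libraries). The share of all genes that separated within a set was not determined, so nothing is read from these separations. Shmt1 averaged 5.39 ± 0.526 FPKM in wtSOD1-ACM and 5.51 ± 0.567 in control.

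Near serine synthesis, Mthfd2, the mitochondrial folate dehydrogenase that takes up one-carbon units made by Shmt2, fell with wtSOD1-ACM from 33.2 ± 1.58 to 25.1 ± 1.98 FPKM (-0.39, limma adjusted p = 8.68e-04). It was the only called gene of the 24 of its list. With mutSOD1-ACM Mthfd2 stood at 27.9 ± 1.28 FPKM (limma adjusted p = 0.399 against control) and with polyP at 36.1 ± 1.45 FPKM (adjusted p = 0.0993). Of the 22 ATF4 list genes 4 fell and 1 rose with wtSOD1-ACM (median -0.18, against 0.00 for all genes). Chac1, a glutathione-degrading enzyme, fell from 50.3 to 30.5 FPKM (-0.71, limma adjusted p = 0.00146) and Asns fell by 0.26 (adjusted p = 0.00831). The stress-response genes Sesn2 and Trib3 fell by 0.67 and 0.62 (limma adjusted p = 0.0085 and 0.0134), with the call of Sesn2 ending without wtSOD1-ACM 3 (adjusted p = 0.0512) and that of Trib3 without wtSOD1-ACM 1 (adjusted p = 0.0742) or 2 (adjusted p = 0.0701). Ppp1r15a, a phosphatase subunit of the stress response, rose by 0.31 (limma adjusted p = 0.0151) and was not called without wtSOD1-ACM 1, 2 or 3 (adjusted p of 0.0601 to 0.0683). In set 1 alone, with 2 and 3 libraries, Mthfd2, Chac1, Asns, Trib3 and Ppp1r15a were not called (limma adjusted p of 0.0837 to 0.365). In set 2 alone, with 2 libraries each, Asns and Ppp1r15a were not called (limma adjusted p = 0.229 and 0.4). Mthfd2 and the 4 ATF4 list genes that fell were 62.5% of the 8 genes called lower among all tested and 5.95% of the 84 list genes tested. The lists were chosen with earlier results of these data known, so nothing is read from these shares. No gene of the transport, purine and glycolysis lists was called, and over all lists 14 of 84 had an unadjusted p under 0.05.

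The third comparison was between mutSOD1-ACM and untreated cultures. None of the 5 enzymes was called, against 0.0168% of all genes, and none had an unadjusted p under 0.05 in limma, against 3.58% of all genes. Groups overlapped for all 5 enzymes, and did not for 0.353% of all genes. Psat1 stood at 92.4, 91.6, 65.9, 67.5 and 61.1 FPKM in mutSOD1-ACM libraries 1 to 5. The high values, in libraries 1 and 2, are those of cluster 1a, where the control library was at 85.0 FPKM. The log2 difference from control was 0.15 ± 0.127 (SE; 95% interval -0.12 to 0.41), and 0.08 ± 0.057 (SE) with the cluster as a term. Phgdh averaged 109 ± 11.9 FPKM in mutSOD1-ACM (log2 difference 0.03 ± 0.077, SE), Psph 12.8 ± 1.54 FPKM and Shmt1 5.62 ± 0.854 FPKM. Shmt2 stood at 58.9, 61.9, 60.5, 65.8 and 67.5 FPKM, and every control library except control 1 was above all of them. Its log2 difference was -0.14 ± 0.067 (SE; 95% interval -0.28 to 0.01), and -0.12 ± 0.039 (SE) with the cluster as a term. None of the 84 list genes was called, and 11 had an unadjusted p under 0.05. Chac1, at 33.3 ± 4.74 FPKM, came closest (-0.59, limma adjusted p = 0.0905).

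The fourth comparison set mutSOD1-ACM against wtSOD1-ACM, which differ in the SOD1 that the astrocytes carried. None of the 5 enzymes was called, against 0.471% of all genes, while 2 of 5, Phgdh and Psat1, and 5.04% of all genes had an unadjusted p under 0.05 in limma. Groups overlapped for all 5 enzymes, and did not for 2.73% of all genes. The log2 difference was 0.29 ± 0.135 for Psat1 (SE; 95% interval 0.01 to 0.57), 0.18 ± 0.082 for Phgdh, 0.14 ± 0.077 for Psph, 0.05 ± 0.111 for Shmt1 and 0.08 ± 0.071 for Shmt2. The cluster 1a libraries, high in Psat1, are 2 of the 5 mutSOD1-ACM libraries and none of the wtSOD1-ACM libraries. With the cluster as a term the difference was 0.14 ± 0.063 (SE) for Psat1, 0.14 ± 0.059 for Phgdh and 0.13 ± 0.061 for Psph. It was -0.02 ± 0.077 for Shmt1 and 0.12 ± 0.043 for Shmt2. Within set 1 (3 against 2 libraries) Phgdh, Psat1, Psph and Shmt2 lay above wtSOD1-ACM without overlap. Within set 2 (2 against 2) only Shmt2 did. The share of all genes that separated within a set was not determined, so nothing is read from these separations. None of the 84 list genes was called, and 13 had an unadjusted p under 0.05.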

How the data were processed

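Expression was measured in 19 libraries made from poly(A)-selected RNA, per the labels' protocols. The authors deposited FPKM per gene and library in 1 table with 2 decimals. Reads were aligned with HISAT to rn6, per the submitters' processing notes, and the tool that made the FPKM is not given in the sources used here. All 19 sample columns were matched to libraries by name, and no 2 libraries were identical.

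Values were tested as log2(FPKM + 1) with limma 3.58.1 (R 4.3.3, trended and robust variance), with group as the only term and all 4 groups in 1 fit. Genes needed an FPKM of 1 in at least 4 libraries. P-values are two-sided and adjusted by Benjamini-Hochberg over all 11887 genes, and fold changes on this scale understate those of low genes. The script was tested on simulated data. All 4 comparisons share libraries, 3 of them the control group. FPKM are not counts and the depth behind them is unknown. With relative depths fitted to the same values, 91.9% of 482 low values lay within 0.1 of a whole multiple of the gene's smallest value. This share is high in part by construction. Relative depths were not stable, so reads were not recovered.

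Members and lists were chosen with earlier results of these data known. The text names all members, for each list and comparison the 4 called genes with the smallest p and those that account for a count of 5 or fewer, and the 5 genes most like each member. Clusters come from average linkage on 1 - r, were found from these libraries and are not groups of the study. Alternatives were the pseudocount, the filter, 3 scalings, the replicate block, the library set and cluster as terms, each set alone and each library left out. Proteins are not used here.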

Additional observations from a re-analysis of the deposited data

How the results depend on the processing

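Without 1 library the polyP log2 difference ran from 0.32 to 0.42 for Phgdh, 0.66 to 0.83 for Psat1 and 0.40 to 0.47 for Psph, a description, since the enzymes were chosen on this contrast. With equal summed FPKM it was 0.27 for Phgdh, 0.63 for Psat1 and 0.33 for Psph, against 0.38, 0.74 and 0.44. This scaling moved the median of all genes by -0.10, from 0.04 to -0.06, and the share of polyP calls that were higher went from 72.4% (2736 higher, 1043 lower) to 45.7% (1404 and 1667), 51.3% with median-of-ratios scaling and 67.7% with quantile normalization.

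The genes called for polyP were 3779, against 5730 with the replicate block, 6194 with the set term, 6631 with the cluster term, which was chosen after seeing the data, and 2470 in set 1 alone (3158 to 4012 without 1 library). The list genes called were 37, against 57 with the cluster term and 24 in set 1 alone (28 to 38 without 1 library). For wtSOD1-ACM against control they were 75 genes, against 119 with the replicate block, 143 with the set term and 239 with the cluster term (56 to 78 without 1 library), and 6 list genes, against 11 with the cluster term and 2 in set 1 alone (4 to 6 without 1 library). For mutSOD1-ACM against control they were 2 genes, against 1 with no filter or equal sums, 0 in set 1 alone and 5 with the block, the cluster term or set 2 alone (1 to 2 without 1 library). Here 1 list gene, Chac1, was called lower with median-of-ratios scaling, quantile normalization, the block or set 2 alone, and 2, Chac1 and Sesn2, with the cluster term. For mutSOD1-ACM against wtSOD1-ACM they were 56 genes, against 96 with the block, 99 with the set term and 119 with the cluster term (40 to 59 without 1 library). Here 1 list gene, Ppp1r15a, was called lower under the 3 scalings, the block or the set term, Sesn2 was called higher in set 2 alone, and both were called with the cluster term, 2 genes (0 to 1 without 1 library, with Ppp1r15a called without control 5 or mutSOD1-ACM 2). Single sets hold fewer libraries; otherwise the cause was not tested.

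Whether a replicate number marks paired libraries is not labelled, and the values do not settle it. Deviations of libraries with 1 number correlated at 0.068 to 0.688 for polyP and control and -0.687 to 0.762 for wtSOD1-ACM and control. They correlated at 0.078 to 0.791 for mutSOD1-ACM and control and -0.725 to 0.730 for both media. The value of -0.687 is that of number 3, whose wtSOD1-ACM library is in set 2 and whose control is in set 1. Of the 5 polyP libraries 3 correlated best with the control of their own number, as did 3 of the 5 mutSOD1-ACM and 1 of the 4 wtSOD1-ACM libraries. With the block Shmt1 was called higher with polyP, and no other enzyme gained or lost a call. The block fit called 3592 of the 11887 genes tested higher and 2138 lower. The serine transport and use genes called lower with polyP were 10 with the block, against 6.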
